A study of Mus musculus with 28 samples.

Results

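Transcripts that mark cardiac macrophages of different origin and state were followed in the heart. The set of 10 genes was chosen by name from what is known of these cells, and its members are 10 of the 39152 gene symbols in the deposited tables. Of these, 5 mark macrophages that live in the tissue (Timd4, Lyve1, Folr2, Cd163 and Mrc1), 3 mark recruited or lipid-laden macrophages (Trem2, Gpnmb and Lgals3), and 2 mark macrophages in general (Cd68 and Adgre1). RNA was sequenced from the left ventricle (LV) of 16 C57BL6 mice and from the right ventricle (RV) of 12 of them. The cKO mice carried αMyHC-Cre-ER(T2) and Pkp2 fl/fl, so that tamoxifen activated Cre in cardiomyocytes and deleted Pkp2, which encodes the desmosomal protein plakophilin-2. Cre-negative Pkp2 fl/fl littermates, called WT here, kept the gene. TN-401, an AAV9 vector carrying human PKP2, was given to cKO mice as 1 retro-orbital dose 1 week before tamoxifen, at 3E13 or 6E13 vg/kg, and the WT and the remaining cKO mice received the HBSS vehicle. The series title gives a study length of about 10 weeks, and the animals were 3 to 10 months old at entry. The LV groups held 5 WT, 4 cKO, 4 3E13 and 3 6E13 libraries, and the RV groups held 3 WT, 4 cKO, 2 3E13 and 3 6E13 libraries, with each library from 1 animal.

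The healthy heart holds a population of macrophages that is seeded early in life and renews itself locally. These cells carry TIMD4, a receptor for phosphatidylserine on dying cells, together with LYVE1, FOLR2, the haemoglobin scavenger receptor CD163 and the mannose receptor MRC1. After injury, blood monocytes enter the heart and mature into further macrophages, and those that take up lipid and debris are known to express the lipid receptor TREM2, the lysosomal glycoprotein GPNMB and galectin-3, the product of Lgals3. CD68, a protein of lysosomes, and ADGRE1, better known as F4/80, are used as general macrophage markers in the mouse.

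Total expected counts per library lay between 19364764 and 39381176, and all 10 members passed the filter on low counts in both ventricles. Mouse Pkp2 was lower in each cKO and TN-401 library (29.18 to 55.25 CPM, that is counts scaled to a common library size) than in each WT library (103 to 122), and the human PKP2 transcript had 0 counts in the WT and cKO libraries and 167.3 to 534.8 CPM in the treated ones. The summed level of 8 ventricular cardiomyocyte transcripts ran from 98630 to 109100 CPM over the WT and from 33920 to 80360 CPM over the cKO libraries of LV, and from 94140 to 109300 CPM and 33090 to 66580 CPM over those of RV. The levels below are all shares of a normalised library. A fall of the cardiomyocyte share can raise the shares of other cells as far as the scaling between libraries does not offset it. For cKO against WT, the median log2 fold change was 0.05 in LV and 0.06 in RV over all genes. Over 8 endothelial genes it was -0.20 and -0.15. The part of the cardiomyocyte share in the results was not tested. In bulk tissue, fewer cells of a type and less RNA per cell cannot be told apart. Among the cKO LV libraries that of animal 177 stood apart, with the highest level of 10 reference macrophage transcripts together (1186 against 258 as the lowest of the group). Atrial muscle transcripts summed to 657.1 and 359.1 CPM in the cKO RV libraries of animals 257 and 180, to 39.8 in that of animal 177 and to 2.047 in that of animal 264, against at most 1.919 in WT RV. Mitochondrial transcripts made up 33.48 to 37.02% of the counts in WT LV and 18.17 to 26.75% in cKO LV, and 35.73 to 39.63% in WT RV and 15 to 23.21% in cKO RV, with animal 177 lowest in both ventricles. Fits without the mitochondrial genes, and in RV without the cKO libraries of animals 257 and 180, were run as alternatives. Beyond these, the part of such transcripts in the results was not tested.

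On the length-normalised TPM scale, which allows levels of different genes to be set side by side, Mrc1 had the highest mean in WT LV (5.76 ± 0.85 TPM, SD, n = 5), followed by Cd68 (3.38 ± 0.38), Lyve1 (2.63 ± 0.36), Folr2 (2.24 ± 0.60), Adgre1 (1.78 ± 0.27) and Cd163 (1.55 ± 0.28). Lgals3 (0.96 ± 0.45 TPM), Timd4 (0.61 ± 0.30), Trem2 (0.38 ± 0.25) and Gpnmb (0.15 ± 0.08) lay lowest. Neighbours from Lyve1 to Cd163, and from Lgals3 to Trem2, lay within 1 SD or little more of each other. In cKO LV the order of the means was led by Lgals3 (38.8 ± 41.7 TPM, SD, n = 4), Cd68 (36.9 ± 46.4) and Mrc1 (30 ± 18.6). Their SDs overlapped, so those 3 could not be ranked. Timd4 had the lowest mean in cKO LV, at 0.19 ± 0.14 TPM. In the RV the same transcript stood at 0.71 ± 0.20 TPM in WT (n = 3) and 0.31 ± 0.12 TPM in cKO (n = 4).

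The first comparison set these markers in cKO hearts against WT hearts. The 2 groups differ in Cre as well as in Pkp2, and the parts of these cannot be told apart. All 3 recruited or lipid-laden markers and both general markers rose in both ventricles, the resident markers Mrc1 and Lyve1 rose, Timd4 fell, and Folr2 and Cd163 did not pass the test, although Cd163 did with limma on log2(TPM + 0.1), a scale on which the median of all genes was also higher. In LV, 7 of the 10 members were called higher and 1 lower in cKO than in WT by edgeR's quasi-likelihood test (adjusted p under 0.05), where 35.8% of all genes tested were called, 19.7% higher and 16.1% lower, and 14.2% lay above and 14.4% below all WT libraries. The RV gave 7 higher and 1 lower, where 37.4% of all genes were called, 19.8% higher and 17.6% lower, and 21.2% lay above and 19.1% below all WT libraries. The median log2 fold change was 4.23 in LV and 3.25 in RV over the 3 recruited or lipid-laden markers, 0.58 and 0.45 over the 5 resident markers, and 2.42 and 2.13 over the 2 general markers, against 0.05 and 0.06 over all genes. On log2(TPM + 0.1) the median over all genes was instead 0.54 in LV and 0.83 in RV, since TPM carry no such normalisation between libraries.

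**Figure D1:**
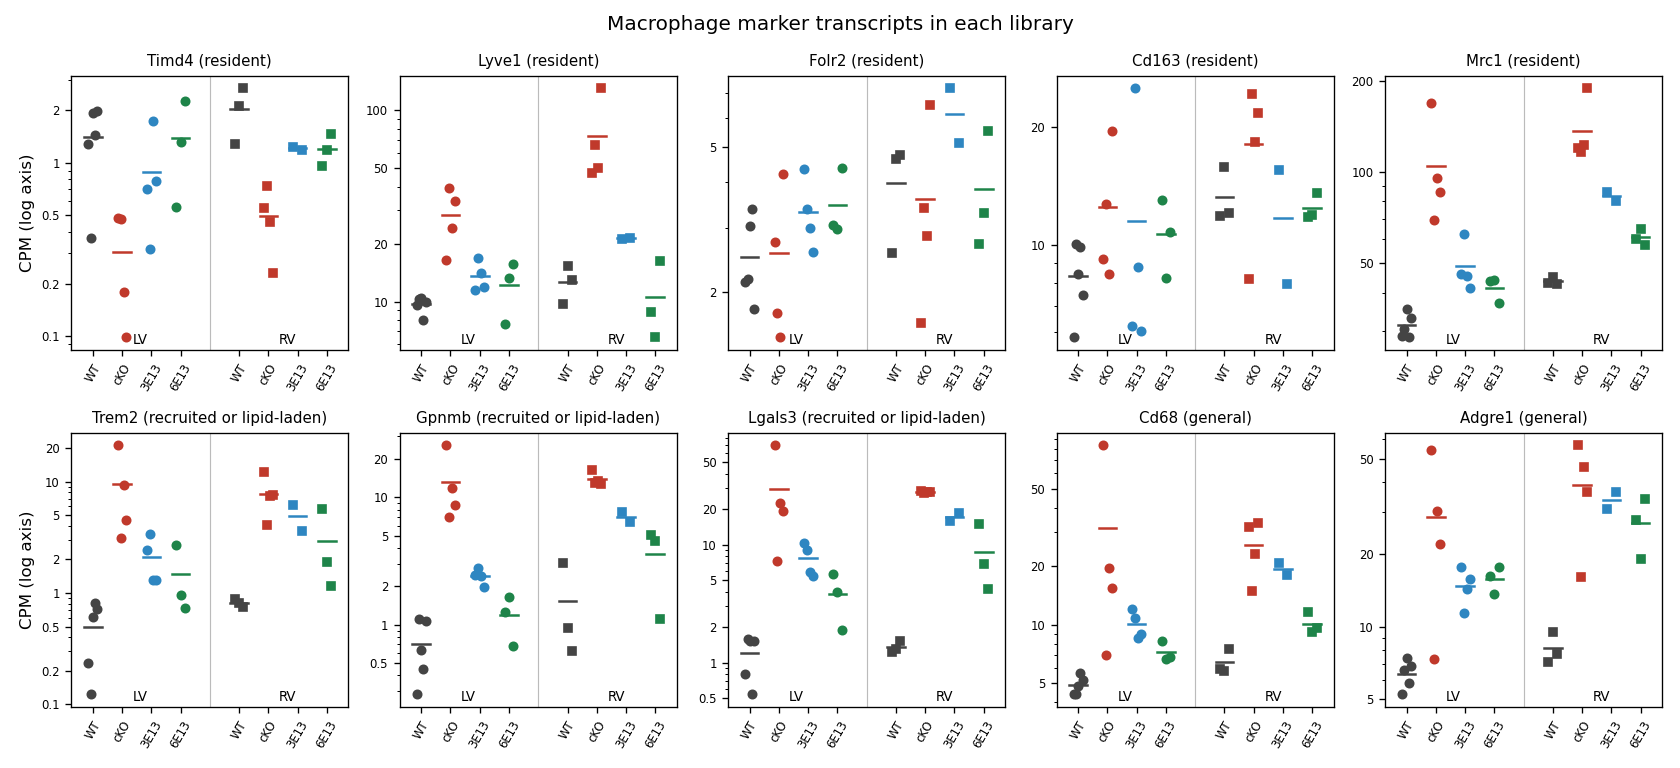
Level of each of the 10 markers in each library, in CPM on a log axis whose range differs between panels. Each point is 1 animal (circles LV, squares RV) and each line is a group mean; the points of Timd4 in cKO lie mostly below those of WT, whereas those of Trem2, Gpnmb and Lgals3 in cKO lie above all WT points.

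Timd4 (chr11:46701620-46735177 on the plus strand, GRCm39) was the only member that fell. The 5 WT LV libraries held 1.28, 0.369, 1.93, 1.44 and 1.98 CPM, and the 4 cKO LV libraries 0.476, 0.472, 0.180 and 0.0981 CPM. Because 1 WT animal, 626, was at 0.369 CPM, the groups overlapped in LV. The log2 fold change was -2.17 ± 0.64 (SE, adjusted p = 0.0146), and without cKO animal 177 it was -2.49. In RV the 3 WT libraries held 1.28, 2.13 and 2.68 CPM and the 4 cKO libraries 0.547, 0.732, 0.453 and 0.232 CPM. There all cKO libraries lay below all WT libraries, with a log2 fold change of -2.04 ± 0.42 (adjusted p = 0.00269). Relative to the median of all genes, Timd4 was lower by the same order on either scale, at -2.22 in LV and -2.10 in RV by CPM and at -1.79 and -1.87 by log2(TPM + 0.1). With 1 added to the TPM the LV call missed the threshold (adjusted p = 0.0504). These values rest on few reads, 3 to 17 expected counts per cKO library in LV and 6 to 17 in RV.

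Lyve1 (chr7:110448585-110462460, minus strand), which encodes a hyaluronan receptor also carried by lymphatic endothelium, rose. Its level was 9.65, 10.3, 10.5, 8.01 and 9.91 CPM in WT LV and 16.5, 39.3, 24.4 and 33.7 CPM in cKO LV, with no overlap. In RV it was 9.69, 15.3 and 12.9 CPM in WT and 47.0, 66.2, 50.3 and 130.4 CPM in cKO, again without overlap. The log2 fold change was 1.56 ± 0.24 in LV (adjusted p = 0.000193) and 2.54 ± 0.40 in RV (adjusted p = 0.000538). Of 6 other lymphatic endothelial transcripts, 3 rose and 1 fell in LV, and 5 rose and 1 fell in RV. Their summed level was 278.1 to 293.8 CPM in WT LV against 203.1 to 331.7 CPM in cKO LV, and 256.8 to 321.9 CPM in WT RV against 389.2 to 493.7 CPM in cKO RV. Most of the sum came from Prox1, a transcription factor of lymphatic endothelium that cardiomyocytes also express, which fell by 1.12 on the log2 scale in LV (SE 0.17, adjusted p = 0.000211). Reln, Flt4 and Pdpn, further markers of lymphatic vessels, rose in both ventricles, in LV by 0.97 ± 0.28, 0.62 ± 0.12 and 2.56 ± 0.41 on the log2 scale (adjusted p = 0.0138, 0.000977 and 0.000301). The part of lymphatic vessels in the Lyve1 level was not tested.

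Mrc1 (chr2:14234151-14336926, plus strand) rose in every cKO library. Its level was 28.8, 30.4, 35.3, 28.5 and 33.0 CPM in WT LV and 168.9, 69.3, 95.8 and 85.9 CPM in cKO LV. In RV it was 43.1, 44.9 and 42.8 CPM in WT and 119.96, 116.4, 122.8 and 188.4 CPM in cKO. No cKO library overlapped with WT, and the log2 fold change was 1.75 ± 0.20 in LV (adjusted p = 2.25e-05) and 1.65 ± 0.16 in RV (adjusted p = 3.09e-05).

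The 2 remaining resident markers showed no difference that passed the test. Folr2 (chr7:101489195-101506401, minus strand), a folate receptor, ranged from 1.79 to 3.37 CPM over the WT and from 1.5 to 4.22 CPM over the cKO libraries of LV, and from 2.56 to 4.74 CPM and 1.64 to 6.49 CPM over those of RV. Its log2 fold change was 0.03 ± 0.30 in LV (adjusted p = 0.951) and -0.15 ± 0.43 in RV (adjusted p = 0.823). Cd163 (chr6:124281606-124307560, plus strand) ranged from 5.82 to 10.1 CPM over the WT and from 8.43 to 19.5 CPM over the cKO libraries of LV, and from 11.9 to 15.8 CPM and 8.20 to 24.3 CPM over those of RV. The Cd163 log2 fold change was 0.58 ± 0.38 in LV (adjusted p = 0.256) and 0.45 ± 0.32 in RV (adjusted p = 0.306). On log2(TPM + 0.1) limma called Cd163 in LV (1.03 ± 0.34, adjusted p = 0.0213) and in RV (1.19 ± 0.29, adjusted p = 0.00415), of which 0.49 and 0.36 lay above the median of all genes. In RV the edgeR call was made without cKO animal 177 (0.69 ± 0.22, adjusted p = 0.0369).

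Trem2 (chr17:48653429-48661175, plus strand) encodes a receptor for lipids and lipoproteins. It was at 0.236, 0.123, 0.606, 0.810 and 0.724 CPM in WT LV and at 21.1, 3.14, 9.33 and 4.55 CPM in cKO LV. In RV it was at 0.885, 0.815 and 0.741 CPM in WT and at 12.1, 4.05, 7.45 and 7.53 CPM in cKO. Every cKO library lay above every WT library in both ventricles. The log2 fold change was 4.23 ± 0.64 in LV, or 18.8-fold (adjusted p = 0.000193), and 3.25 ± 0.57 in RV (adjusted p = 0.000946).

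Gpnmb (chr6:49013426-49047863, plus strand) was at 0.284, 1.11, 0.633, 0.450 and 1.07 CPM in WT LV and at 25.5, 6.95, 11.9 and 8.70 CPM in cKO LV. In RV the values were 3.05, 0.950 and 0.618 CPM in WT and 16.4, 13, 13.5 and 12.6 CPM in cKO. The groups did not overlap, although WT animal 636 was higher in RV than the other WT hearts. For Gpnmb the log2 fold change was 4.21 ± 0.44 in LV (adjusted p = 9.26e-06) and 3.19 ± 0.57 in RV (adjusted p = 0.00114), and in RV it was 4.14 without WT animal 636. Pigment cells also express Gpnmb. Of 5 melanocyte transcripts, 1 was tested in LV and did not pass, and of 3 tested in RV 2 rose. Their summed level was 1.371 to 2.969 CPM in WT LV against 0.08402 to 2.431 CPM in cKO LV, and 0.9884 to 1.869 CPM in WT RV against 1.162 to 3.658 CPM in cKO RV. Of the RV risers, Mlana, which encodes a melanosome protein, was at 0 counts in the 3 WT libraries and at 2 to 62 counts in the cKO libraries (adjusted p = 0.00751), and Pmel, another melanosome gene, had a log2 fold change of 2.25 ± 0.82 (adjusted p = 0.0493). The part of melanocytes in the Gpnmb level was not tested.

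Lgals3 (chr14:47605208-47623624, plus strand), which codes for a galactoside-binding lectin that macrophages secrete, had the highest fold change of the 10 in both ventricles. WT LV libraries held 0.804, 1.60, 1.54, 0.540 and 1.52 CPM and cKO LV libraries 69.4, 7.35, 22.5 and 19.3 CPM. WT RV libraries held 1.23, 1.31 and 1.52 CPM and cKO RV libraries 28.4, 27.5, 28.1 and 27.9 CPM. The 4 cKO hearts thus differed widely in LV and hardly at all in RV, and none overlapped with WT. The log2 fold change was 4.6 ± 0.56 in LV, or 24.3-fold (adjusted p = 3.39e-05), and 4.36 ± 0.39 in RV (adjusted p = 1.66e-05). Without cKO animal 177 the LV values were 3.74 for Lgals3 and 3.47 for Trem2, both still called. The WT LV libraries held 3 to 22 expected counts of Trem2, 6 to 28.2 of Gpnmb and 12 to 56 of Lgals3. Those of WT RV held 18 of Trem2 each, 14.8 to 62 of Gpnmb and 25 to 37 of Lgals3. The size and order of these folds thus rest on few WT reads.

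The general markers rose less. Cd68 (chr11:69555037-69557067, minus strand) was at 4.4, 4.39, 4.87, 5.62 and 5.18 CPM in WT LV and at 83.5, 7.01, 19.7 and 15.4 CPM in cKO LV. All cKO libraries were above WT, but animal 177 was far above the rest of its group, and without it the log2 fold change of 2.68 ± 0.49 (adjusted p = 0.000745) was 1.51. In RV, Cd68 was at 5.95, 5.79 and 7.50 CPM in WT and 31.9, 14.9, 23.2 and 33.4 CPM in cKO, a log2 fold change of 2.01 ± 0.26 (adjusted p = 0.000139). Adgre1 (chr17:57665573-57790527, plus strand), listed under its older symbol Emr1, was at 5.25 to 7.43 CPM over the WT LV libraries and at 54.4, 7.35, 30.3 and 22.2 CPM in cKO LV. Animal 180 overlapped with WT there, and the log2 fold change was 2.16 ± 0.37 (adjusted p = 0.000433; 1.63 without animal 177). In RV, Adgre1 was at 7.18 to 9.55 CPM in WT and 56.6, 16.1, 46.0 and 36.5 CPM in cKO, without overlap (2.25 ± 0.36, adjusted p = 0.000605). Genes annotated on the opposite strand overlap Folr2, Cd163, Trem2, Gpnmb and Cd68, and whether the authors' counting used strand is not given in the sources used here.

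**Figure D2:**
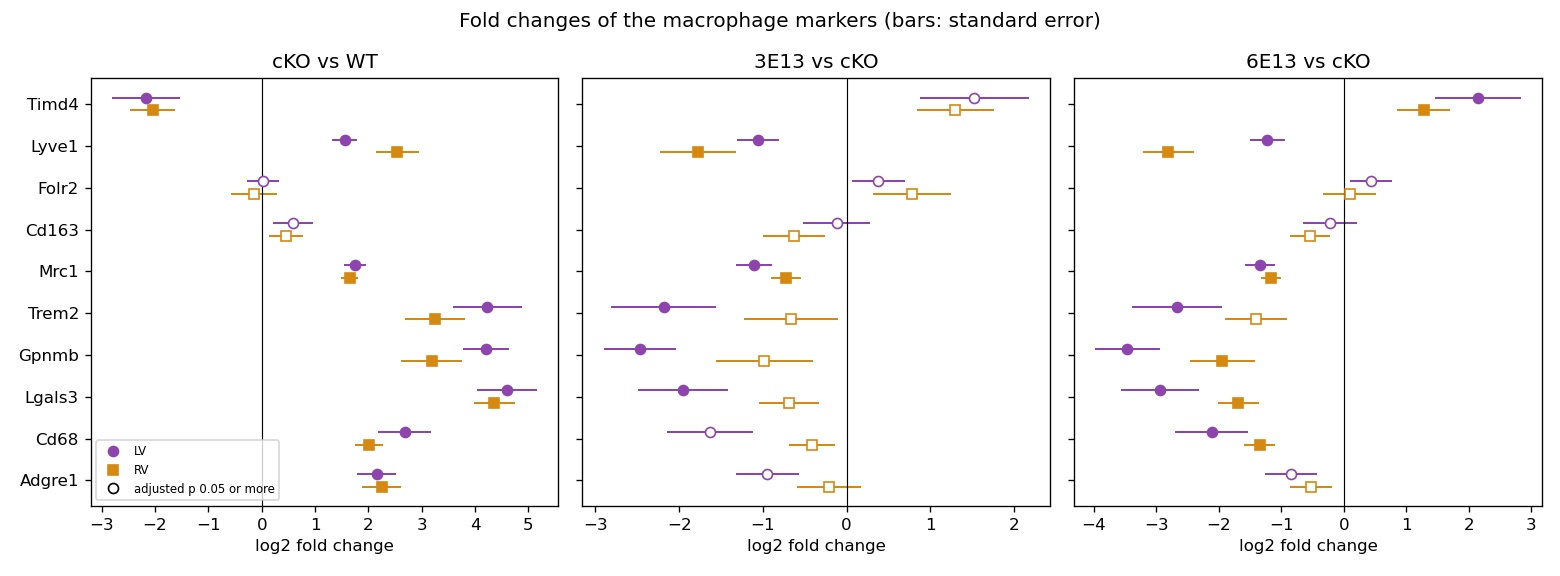
Log2 fold change of each marker in LV (purple circles) and RV (orange squares) for cKO against WT and for each TN-401 dose against cKO, each panel with its own axis range. Bars are the standard error and open symbols mark an adjusted p of 0.05 or more; Timd4 lies left of 0 in the first panel and right of 0 in the other panels, opposite to Trem2, Gpnmb and Lgals3.

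Promoter sequences are shown for the member that fell, Timd4, and for 3 that rose, Trem2, Gpnmb and Cd68. These 3 are the members that rose whose window held an AP-1 match, so their sharing of it follows from the choice. Mrc1 and Lgals3 also rose, and their windows, not printed, held no AP-1 match. The sequences come from RefSeq on GRCm38.p6 and span 250 bases before to 50 bases after a transcription start. Of the 10 members 8 matched an entry, without Lyve1 and Adgre1. Both strands were searched for GAGGAAGT, bound by PU.1 and other ETS factors (found in 3.2% of all 32851 promoters of this length), GGAAGTG, a related ETS form (11%), TGANTCA of AP-1 (7.81%), and the E-boxes CACGTG (7.15%) and CATGTG (14.2%) bound by the MITF and TFE factors of lysosomal genes. The first 2 motifs can overlap each other. Capitals below mark matches, on either strand.
Timd4, chr11:46810549-46810848, plus strand: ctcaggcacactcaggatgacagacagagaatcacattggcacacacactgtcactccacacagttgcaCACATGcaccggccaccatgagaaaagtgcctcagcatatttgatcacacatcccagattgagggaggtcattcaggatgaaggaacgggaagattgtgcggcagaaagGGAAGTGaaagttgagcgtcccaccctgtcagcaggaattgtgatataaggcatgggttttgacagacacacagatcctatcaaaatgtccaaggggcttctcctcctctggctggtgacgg
Trem2, chr17:48346151-48346450, plus strand: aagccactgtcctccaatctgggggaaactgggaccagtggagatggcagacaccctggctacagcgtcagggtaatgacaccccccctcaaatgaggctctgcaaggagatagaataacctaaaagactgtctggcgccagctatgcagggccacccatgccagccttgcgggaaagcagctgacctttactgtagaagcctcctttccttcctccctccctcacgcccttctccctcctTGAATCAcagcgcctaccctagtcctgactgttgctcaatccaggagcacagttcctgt
Gpnmb, chr6:49036268-49036567, plus strand: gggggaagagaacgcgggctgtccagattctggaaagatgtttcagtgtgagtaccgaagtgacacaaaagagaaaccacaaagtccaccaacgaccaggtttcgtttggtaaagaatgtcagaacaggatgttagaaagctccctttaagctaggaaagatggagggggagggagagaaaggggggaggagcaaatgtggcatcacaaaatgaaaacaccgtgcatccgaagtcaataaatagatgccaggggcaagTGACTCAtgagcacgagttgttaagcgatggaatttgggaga
Cd68, chr11:69666121-69666420, minus strand: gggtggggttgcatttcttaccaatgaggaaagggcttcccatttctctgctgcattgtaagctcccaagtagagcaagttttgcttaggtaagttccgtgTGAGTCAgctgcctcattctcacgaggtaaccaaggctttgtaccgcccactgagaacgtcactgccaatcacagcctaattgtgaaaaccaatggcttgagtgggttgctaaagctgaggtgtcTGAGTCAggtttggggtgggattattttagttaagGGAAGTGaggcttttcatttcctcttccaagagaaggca
The AP-1 letters stood 9 bases before the start of Trem2, 9 bases after that of Gpnmb, and 149 and 24 bases before that of Cd68, and also in 1 of the 2 Folr2 promoters, 74 bases before its start, a gene with no called difference. The Timd4 window held CATGTG, read on the other strand, 181 bases before its start and GGAAGTG 72 bases before it. Mrc1, which rose, also held both of these, with CATGTG letters 186 and 101 bases and GGAAGTG letters 212 bases before its start. GGAAGTG also stood 12 bases after the start of Cd68, and 136 and 81 bases before that of the other Folr2 promoter. The Folr2 promoter with the AP-1 letters held CATGTG letters 155 bases before its start. No window of a matched member held GAGGAAGT or CACGTG, and the Cd163 and Lgals3 windows held no searched motif. A match describes letters only.

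Since the macrophage share of the tissue RNA rose as a whole, each marker was also set against 10 reference macrophage transcripts (Csf1r, C1qa, C1qb, C1qc, Fcer1g, Laptm5, Aif1, Ctss, Fcgr3 and Mpeg1) in the same library. All 10 of these rose in cKO in both ventricles, with a median log2 fold change of 2.29 in LV and 2.32 in RV. The relative level is the log2(CPM + 0.5) of a marker minus the mean of that value over the 10, given as a description. For Timd4 the 5 WT LV libraries averaged -2.41 ± 0.49 (SD) and the 4 cKO LV libraries -5.71 ± 0.94, while the 3 WT RV libraries averaged -2.17 ± 0.27 and the 4 cKO RV libraries -5.72 ± 0.77. The Timd4 groups did not overlap on this scale in either ventricle, LV included. The same held for 82.8% of all genes in LV and 87.6% in RV, which lay lower in cKO without overlap.

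Folr2 and Cd163, whose absolute levels did not pass the test, lay below WT on the relative scale in every cKO library of both ventricles. Their mean differences were -2.14 and -1.61 in LV and -2.43 and -1.87 in RV. Mrc1 (-0.46 in LV and -0.60 in RV) and Lyve1 (-0.67 and 0.18) overlapped with WT. Without cKO animal 180 the Lyve1 difference in RV was -0.06, and without animal 264 it was -0.03. Because the reference transcripts themselves rose, most genes fall on this scale: 82.8% of all genes in LV and 87.6% in RV lay lower in cKO without overlap, and 0.183% and 0.474% lay higher.

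Lgals3 lay higher than WT without overlap on the relative scale in both ventricles, by 1.66 in LV and 1.73 in RV. Gpnmb did so in LV (1.28), while in RV its groups overlapped (0.78). Computed from the deposited TPM, the Gpnmb difference was 0.05 in LV and -0.35 in RV, so its place on this scale depended on the unit. Trem2 overlapped with WT in both ventricles (0.93 in LV and 0.35 in RV), as did Adgre1 (-0.34 and -0.16). Cd68 overlapped in LV (-0.14) and lay below WT in RV (-0.34). Without cKO animal 180 or 264 the Cd68 difference in LV was 0.00.

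**Figure D3:**
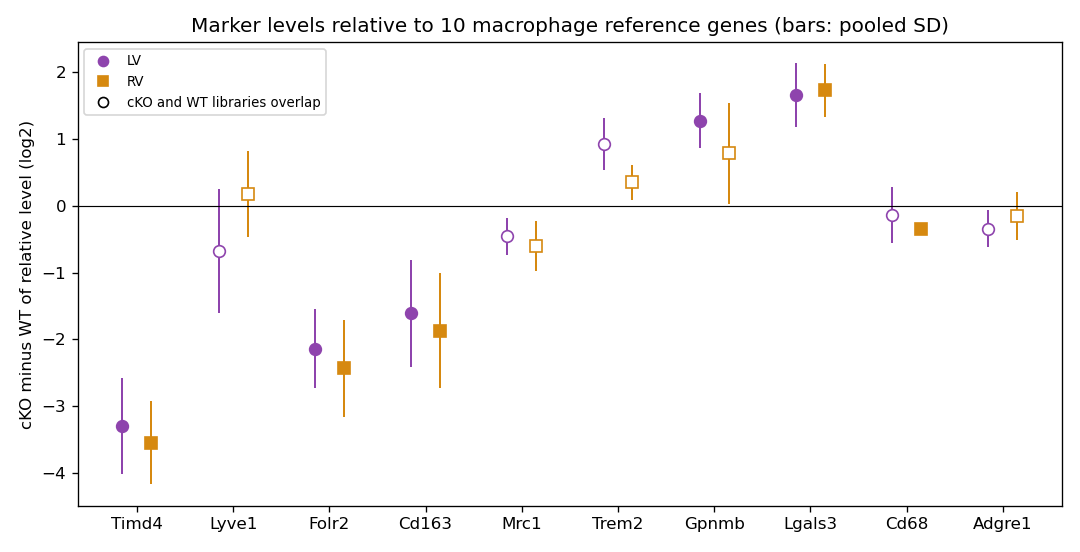
Mean relative level of each marker in cKO minus that in WT, for LV (purple circles) and RV (orange squares). The relative level is log2(CPM + 0.5) minus the mean over 10 reference macrophage transcripts of the same library. Bars are the pooled SD, and open symbols mark markers whose cKO and WT libraries overlap. Timd4, Folr2 and Cd163 lie below 0 with filled symbols in both ventricles, and Lgals3 lies above 0 with filled symbols.

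The balance of the resident and the recruited markers within each library was taken as the mean log2(CPM + 0.5) of the 5 resident markers minus that of the 3 recruited or lipid-laden ones, with no test. In LV it was 2.76, 2.24, 2.52, 2.72 and 2.14 in WT and -1.80, 0.68, -0.85 and 0.19 in cKO. In RV it was 1.95, 2.86 and 2.88 in WT and -0.84, 0.38, -0.17 and 0.44 in cKO. All cKO libraries lay below all WT libraries, by 2.92 between the means in LV and 2.61 in RV. The resident part was not lower in cKO, at 2.60 to 2.98 in WT LV and 2.97 to 3.47 in cKO LV. In RV it was 2.97 to 3.45 in WT and 3.35 to 4.285 in cKO. The recruited part was -0.14 to 0.65 in WT LV and 2.58 to 5.09 in cKO LV, and 0.50 to 1.03 and 3.58 to 4.20 in RV. Animal 177 had the lowest balance in both ventricles and animals 180 and 264 the highest of the cKO group. The 4 LV libraries at 3E13 were at 0.70, 0.98, 1.44 and 1.17, and the 3 at 6E13 at 1.13, 1.73 and 2.70, all above the cKO libraries. In RV the 2 libraries at 3E13 were at 0.45 and 0.40, and the 3 at 6E13 at -0.02, 0.87 and 2.25, with 1 library at each dose inside the cKO range. Animal 645 lay within the WT range in both ventricles, and animal 250 had the lowest value of its dose group in both.

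**Figure D4:**
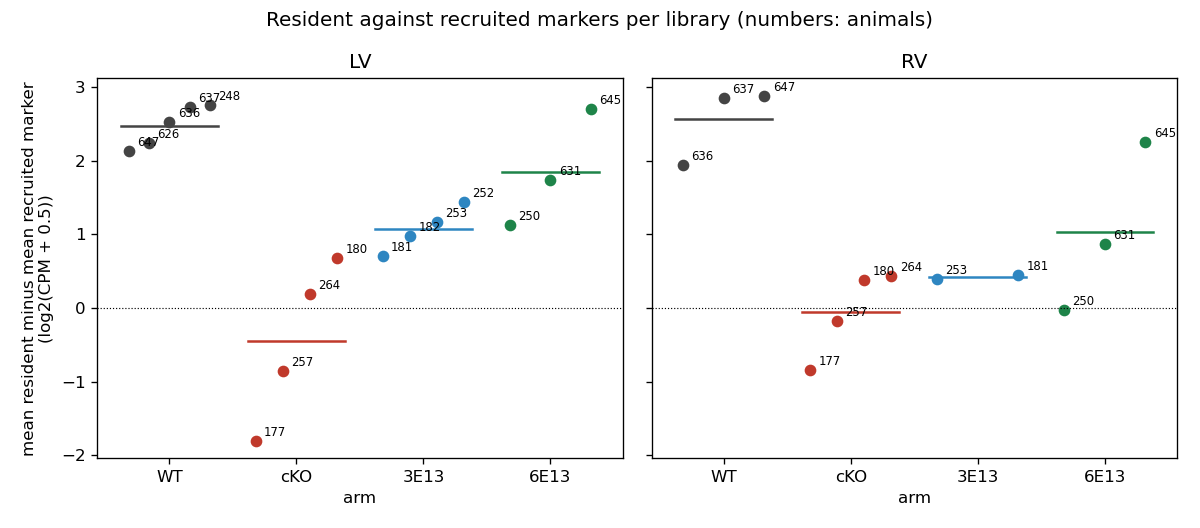
Mean log2(CPM + 0.5) of 5 resident markers minus that of 3 recruited or lipid-laden markers in each library of LV (left) and RV (right), with points placed by value within a group, numbers naming the animals and lines at the group means. WT libraries lie between 1.95 and 2.88 and cKO libraries between -1.80 and 0.68.

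The next comparisons asked whether TN-401 altered these markers in cKO hearts. Both doses were set against the same cKO libraries, so the 2 comparisons of a ventricle share their controls. The share of all genes without overlap is not given for comparisons of treated hearts with cKO or WT. Lack of overlap is therefore only a description there. In LV at 3E13, 5 of the 10 members were lower than in cKO (Lyve1, Mrc1, Trem2, Gpnmb and Lgals3) and none was higher, where 11.8% of all genes were called, 5.52% higher and 6.25% lower. In LV at 6E13, 6 were lower (the same 5 and Cd68) and 1, Timd4, was higher, where 16.8% of all genes were called, 8.16% lower and 8.65% higher. Folr2 and Cd163 passed the test in neither comparison. These calls rest on a fit of all 4 groups of the ventricle: with only the 2 groups compared, 0 members were called at 3E13 and 1, Gpnmb, at 6E13.

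Gpnmb was the member with the largest fall in LV. Its level was 2.44, 2.79, 2.39 and 1.97 CPM at 3E13 and 1.25, 1.66 and 0.681 CPM at 6E13, all below the lowest cKO library (6.95 CPM). The log2 fold change was -2.47 ± 0.43 at 3E13 (adjusted p = 0.00429) and -3.46 ± 0.51 at 6E13 (adjusted p = 0.000932). Leaving out any 1 library kept both calls, while with only the 2 groups compared the first was lost (-2.49, adjusted p = 0.0517) and the second was kept.

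Lgals3 was at 10.3, 9.10, 5.88 and 5.42 CPM at 3E13, overlapping with cKO animal 180, and at 5.61, 3.98 and 1.91 CPM at 6E13, below all cKO libraries. It fell by 1.95 on the log2 scale at 3E13 (SE 0.54, adjusted p = 0.0312) and by 2.94 at 6E13 (SE 0.63, adjusted p = 0.00689). At 3E13 the call was lost without treated animal 181, 252 or 253 or without cKO animal 177 (adjusted p = 0.0541 to 0.101), and without animal 177 the log2 fold change was -1.10. Trem2 was at 2.44, 3.37, 1.30 and 1.31 CPM at 3E13 and 2.72, 0.963 and 0.727 CPM at 6E13. The 3E13 group overlapped with cKO and the 6E13 group did not. Trem2 had a log2 fold change of -2.19 ± 0.63 (adjusted p = 0.037) and -2.67 ± 0.72 (adjusted p = 0.0207). The first was lost without animal 181, 252, 253 or 177 (adjusted p = 0.0745 to 0.115; -1.44 without 177), and the second without 6E13 animal 631 or 645 (adjusted p = 0.0824 and 0.0947).

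Mrc1 was at 46.1, 62.5, 45.6 and 41.5 CPM at 3E13 and 43.8, 44.0 and 36.9 CPM at 6E13 in LV, all below the cKO libraries. Its log2 fold change was -1.10 ± 0.21 (adjusted p = 0.00658) and -1.34 ± 0.24 (adjusted p = 0.00241). Lyve1 was at 11.4, 17.0, 14.2 and 12 CPM at 3E13 and 7.59, 13.3 and 15.7 CPM at 6E13, with 1 library at 3E13 above the lowest cKO library. Its log2 fold change was -1.06 ± 0.25 (adjusted p = 0.0165; 0.0582 without 3E13 animal 253) and -1.23 ± 0.28 (adjusted p = 0.00896). With only the 2 groups compared neither passed the test, at folds close to these (adjusted p = 0.099 and 0.0678 for Mrc1 and 0.0956 and 0.105 for Lyve1).

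Timd4 in LV was at 0.702, 0.316, 1.74 and 0.787 CPM at 3E13, overlapping with cKO, and at 0.556, 1.31 and 2.27 CPM at 6E13, above all cKO libraries. The log2 fold change was 1.52 ± 0.65 (adjusted p = 0.136) and 2.14 ± 0.69 (adjusted p = 0.0444). The call at 6E13 was lost without 6E13 animal 631 or 645 or cKO animal 257 or 264 (adjusted p = 0.0895 to 0.204). Among the general markers, Cd68 was at 8.55 to 12.1 CPM at 3E13 and 6.65 to 8.23 CPM at 6E13, with log2 fold changes of -1.63 ± 0.51 (adjusted p = 0.0503) and -2.12 ± 0.58 (adjusted p = 0.0227). Leaving out cKO animal 180, 257 or 264 brought the first past the threshold (adjusted p = 0.00805 to 0.0435), and leaving out any of the 3 treated animals took the second back over it (adjusted p = 0.0624 to 0.0865). Adgre1 was at 11.5 to 17.7 CPM at 3E13 and 13.7 to 17.7 CPM at 6E13, and its log2 fold changes, -0.95 ± 0.38 and -0.85 ± 0.41, did not pass the test (adjusted p = 0.113 and 0.174). Without cKO animal 180 both did, at -1.27 (adjusted p = 0.00534) and -1.17 (adjusted p = 0.00732).

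In RV, 2 members were lower at 3E13 than in cKO (Lyve1 and Mrc1) and none was higher, where 8.6% of all genes were called, 4.77% higher and 3.83% lower. At 6E13, 5 were lower (Lyve1, Mrc1, Gpnmb, Lgals3 and Cd68) and Timd4 was higher, where 22.1% were called, 10.9% lower and 11.2% higher. Lyve1 was at 21.4 and 21.6 CPM at 3E13 and at 8.86, 6.49 and 16.2 CPM at 6E13, all below the cKO range. RV Lyve1 thus had log2 fold changes of -1.77 ± 0.45 (adjusted p = 0.0365) and -2.81 ± 0.41 (adjusted p = 0.000985). Mrc1 was at 85.9 and 80.1 CPM at 3E13 and at 60.3, 65.0 and 57.5 CPM at 6E13, again below cKO, with log2 fold changes of -0.72 ± 0.18 (adjusted p = 0.034) and -1.17 ± 0.16 (adjusted p = 0.000675). The 3E13 group had only 2 RV libraries, and without either one neither Lyve1 nor Mrc1 was called there (adjusted p = 0.197 to 0.259), nor with only the 2 groups compared (adjusted p = 0.0807 and 0.112).

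Lgals3 in RV was at 16 and 18.6 CPM at 3E13 and at 15, 6.82 and 4.20 CPM at 6E13, all below the narrow cKO range. Its log2 fold change was -0.69 at 3E13 (adjusted p = 0.245) and -1.69 ± 0.32 at 6E13 (adjusted p = 0.00406). Gpnmb was at 7.69 and 6.36 CPM at 3E13 and at 5.08, 4.57 and 1.10 CPM at 6E13, with log2 fold changes of -0.98 (adjusted p = 0.313) and -1.94 ± 0.52 (adjusted p = 0.021; 0.059 without 6E13 animal 645). Trem2 was at 6.18 and 3.64 CPM at 3E13 and at 5.69, 1.92 and 1.15 CPM at 6E13, and passed edgeR's test at neither dose (-0.67, adjusted p = 0.494, and -1.41 ± 0.50, adjusted p = 0.0663). DESeq2 called the second (-1.42 ± 0.50, adjusted p = 0.0215), as did limma on log2(TPM + 0.1) (-2.18 ± 0.52, adjusted p = 0.00696). Without 6E13 animal 250, which had the highest Trem2 of its group, the second was -2.34 (adjusted p = 0.0066).

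Cd68 in RV was at 20.7 and 18.1 CPM at 3E13 and at 11.6, 9.18 and 9.63 CPM at 6E13, with log2 fold changes of -0.42 (adjusted p = 0.37) and -1.35 ± 0.25 (adjusted p = 0.00319). Adgre1 stayed within the cKO range at both doses, at 30.8 and 36.3 CPM and at 27.9, 19.1 and 34.1 CPM (log2 fold changes of -0.21 and -0.52, adjusted p = 0.781 and 0.3). Timd4 was at 1.24 and 1.19 CPM at 3E13 and at 0.953, 1.18 and 1.46 CPM at 6E13, all above cKO. It passed the test at 6E13 (1.28 ± 0.42, adjusted p = 0.0486) and not at 3E13 (1.30, adjusted p = 0.102). Each of 6 of the 7 ways of leaving out 1 treated or cKO library took the 6E13 call over the threshold (adjusted p = 0.0634 to 0.162), so it stood close to it.

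Leaving out the 2 cKO RV libraries with the most atrial transcripts, an alternative chosen after the data were seen, gave 8 members called for cKO against WT, 3 for 3E13 against cKO and 7 for 6E13 against cKO, against 8, 2 and 6 with them. Timd4 at 6E13 was then not called (1.60, adjusted p = 0.0512), and Trem2 and Adgre1 at 6E13 (-1.74 and -0.78, adjusted p = 0.046 and 0.0481) and Cd68 at 3E13 (-0.74, adjusted p = 0.0285) were.

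The treated hearts were next set against WT to see which markers remained different. In LV at 3E13, 2 members were higher than in WT, Lgals3 (2.65 ± 0.54, adjusted p = 0.0172) and Gpnmb (1.74 ± 0.42, adjusted p = 0.0421), where 2.5% of all genes were called, 1.97% higher and 0.53% lower. Both stood close to the threshold. The Gpnmb call was lost on leaving out any 1 of the 9 libraries (adjusted p = 0.052 to 0.101), and the Lgals3 call without 3E13 animal 181 or WT animal 248 (adjusted p = 0.0573 and 0.0547). At 6E13 in LV, 0 members were called by edgeR and 0 by DESeq2, where 0.0853% of all genes were called by edgeR, and 3 members (Trem2, Lgals3 and Adgre1) had an unadjusted p under 0.05, as did 6.25% of all genes. For Lgals3 the log2 fold change was 1.66 (adjusted p = 0.557) and for Adgre1 1.31 ± 0.39 (adjusted p = 0.397), with all 3 Adgre1 libraries above WT. These calls too depended on the fit of all 4 groups. With only the 2 groups compared, edgeR called 7 members at 3E13. Among them were Adgre1 (1.205 ± 0.15, adjusted p = 0.00101), Cd68 (1.04 ± 0.14, adjusted p = 0.00152) and Trem2 (2.04 ± 0.51, adjusted p = 0.0281). At 6E13 such a fit called 1, Adgre1 (1.30 ± 0.14, adjusted p = 0.00503).

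In RV at 3E13, 5 members were higher than in WT, where 7.38% of all genes were called, 5.8% higher and 1.58% lower. Lgals3 (3.67 ± 0.40, adjusted p = 0.000759), Trem2 (2.59 ± 0.61, adjusted p = 0.0257), Adgre1 (2.04 ± 0.40, adjusted p = 0.0109), Cd68 (1.59 ± 0.29, adjusted p = 0.00641) and Mrc1 (0.93 ± 0.18, adjusted p = 0.0107) made up this group. Lgals3 alone kept its call whichever library was left out; without 3E13 animal 181 or 253 the count was 2. At 6E13 in RV, Lgals3 was the 1 member called by edgeR (2.67 ± 0.38, adjusted p = 0.0134), where 0.872% of all genes were called (0.849% higher), and leaving out any WT library took it over the threshold (adjusted p = 0.0535 to 0.0738). Adgre1 was next (1.73 ± 0.37, adjusted p = 0.0562). With only the 2 groups compared, edgeR called Adgre1 (1.72 ± 0.23, adjusted p = 0.0341) and not Lgals3 (2.66 ± 0.46, adjusted p = 0.0556). DESeq2 called 3 members there, Lgals3, Adgre1 (1.71 ± 0.37, adjusted p = 0.000374) and Trem2 (1.83 ± 0.57, adjusted p = 0.037). The 2 doses did not differ for any member by edgeR or DESeq2 in either ventricle, where edgeR called 0.0122% of all genes in LV and 0.0404% in RV. At an unadjusted p under 0.05 there were 0 members in LV (5.56% of all genes) and 4 in RV (Lyve1, Mrc1, Lgals3 and Cd68; 8.65% of all genes).

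The ventricles of the 12 animals with both libraries were compared within animals. In cKO hearts Lyve1 was the 1 member that differed, higher in RV by 1.18 ± 0.23 on the log2 scale (adjusted p = 0.0192), where 4.08% of all genes were called. It was higher in RV in 4 of 4 animals, at 47.0 against 16.5 CPM, 66.2 against 39.3, 50.3 against 24.4 and 130.4 against 33.7 CPM. Without animal 264 the Lyve1 difference was 0.96 (adjusted p = 0.102), and without animal 177 the count of members was 4, Lyve1, Mrc1, Cd68 and Adgre1. A fit that ignored the animals, with no replicate block, called 0 members, with Lyve1 at 1.23 (adjusted p = 0.0972). Between the ventricles of the cKO hearts, 4 of 4 atrial muscle genes (median log2 difference 8.95), 6 of 8 resting fibroblast genes (0.96) and 1 of 6 lymphatic endothelial genes (0.85) were also higher in RV, and 2 of 8 ventricular cardiomyocyte genes (-0.42) were lower, against a median of -0.01 over all genes. Their part in the Lyve1 difference was not tested. In WT hearts 0 members were called by either tool and 0 had an unadjusted p under 0.05, where edgeR called 0.00556% of all genes and 8.56% had such a p. At 6E13, 0 were called by either tool and 3 (Trem2, Gpnmb and Adgre1) had an unadjusted p under 0.05, where 0.0111% of all genes were called and 5.56% had such a p.

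Whether the difference of cKO from WT was unlike between the ventricles was tested with an interaction term. No member passed with edgeR or DESeq2, where edgeR called 0.0111% of all genes, and Lyve1 alone had an unadjusted p under 0.05, as did 10.4% of all genes. The Lyve1 difference of cKO from WT was larger in RV by 0.90 ± 0.35 on the log2 scale (adjusted p = 0.398).

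Within the set, the markers fell into patterns that did not follow the resident and recruited labels. Over the 16 LV libraries Mrc1, labelled resident, ran with Trem2 (Pearson's r = 0.96), Gpnmb (0.97) and Lgals3 (0.95), and within groups, after the group means were removed, the values were 0.83, 0.84 and 0.89. Lyve1 ran against the recruited and general markers within groups, with r = -0.76 for Trem2, -0.75 for Cd68, -0.68 for Adgre1 and -0.67 for Lgals3, whereas over all 16 libraries those values were 0.55, 0.40, 0.37 and 0.60. In cKO LV, animal 177 had the lowest Lyve1 (16.5 CPM) and the highest Mrc1, Trem2, Lgals3, Cd68 and Adgre1. Animal 180 had the highest Lyve1 (39.3 CPM) and the lowest of those other markers. How far the values within groups rest on these libraries was not tested. All of these correlations are descriptions over libraries that differ in group, depth and cardiomyocyte content.

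Among 13355 genes whose mean reached 1 CPM, the transcripts most alike to Mrc1 over the 16 LV libraries were Rtn4 (r = 0.99), Myo5a (0.98) and Tlr13 (0.98). Those most alike to Lgals3 were Anxa2 (0.98), Tgfb2 (0.98) and Fcgr3 (0.97), and to Cd68 Plod3 (0.98), Tnfrsf1b (0.98) and Slc7a11 (0.98). Adgre1 was most like Ptprc (0.97), Cxcl16 (0.96) and Pld4 (0.96), Trem2 most like Irf5 (0.97), Rtn4 (0.97) and Myo5a (0.96), and Gpnmb most like Mrc1 (0.97), Atl3 (0.97) and Gpr124 (0.97). Lyve1 was most like Irak3 (0.95), Foxc1 (0.92) and Foxp1 (0.92). Cd163 was most like Eif2a (0.90), Dnajb4 (0.84) and Atp1b1 (0.84), and Timd4 most like Rsl24d1 (0.87), Tspan7 (0.85) and Mgmt (0.84). No transcript followed Folr2 as closely, with Gm9747 first at 0.71. These values include the differences between groups. Within groups, r for the pairs named here ran from 0.67 (Lyve1 with Foxp1) to 0.96 (Cd68 with Slc7a11). It was lower than over all libraries, except for Cd163 with Eif2a (0.92) and Atp1b1 (0.85) and for Folr2 with Gm9747 (0.785).

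Other genes of the same cells were counted from lists compiled for each role. For cKO against WT, the counts of all lists below stand beside 19.7% of all genes higher and 16.1% lower in LV. In RV these shares were 19.8% and 17.6%. Among 12 monocyte genes, 11 rose in cKO LV (median log2 fold change 2.95) and 8 in cKO RV (2.79), with none lower. In LV, Vcan (2.19 ± 0.21, adjusted p = 5.36e-06), Cd14 (3.32 ± 0.43, adjusted p = 5.18e-05) and the chemokine receptor of classical monocytes Ccr2 (3.64 ± 0.76, adjusted p = 0.00184) were among them. Ly6c2, a surface marker of the same monocytes, did not pass the test in LV (0.28, adjusted p = 0.651). After TN-401, 2 of the 12 were lower than in cKO at each dose in LV, where 6.25% and 8.16% of all genes were, and 0 at 3E13 and 2 at 6E13 in RV, where 3.83% and 10.9% were.

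Of the 14 other resident macrophage genes tested in LV, 9 rose, and of 15 in RV, 9 rose, with none lower. The growth factor gene Igf1 (1.60 ± 0.17, adjusted p = 1.39e-05), the transcription factor gene Maf (1.17 ± 0.17, adjusted p = 0.000119) and the scavenger receptor gene Stab1 (1.42 ± 0.25, adjusted p = 0.000537) led this list in LV, and fibroblasts and endothelium also express some of these. Among those that did not pass it, the log2 fold changes for LV and then RV were -1.05 and -2.88 for Ccl24 (adjusted p = 0.452 and 0.0794), -0.90 and -0.31 for Fcna (adjusted p = 0.3 and 0.738), -0.18 and 0.12 for Mgl2 (adjusted p = 0.778 and 0.852) and 0.07 and -0.32 for Cbr2 (adjusted p = 0.866 and 0.535). Of 16 other lipid-laden macrophage genes, 13 rose in LV, and 11 rose and 1 fell in RV. Apoe (2.07 ± 0.16, adjusted p = 9.44e-07), which carries cholesterol, and the lysosomal lipase gene Lipa (1.36 ± 0.13, adjusted p = 3.79e-06) led in LV, and the gene that fell in RV was Lpl, which encodes lipoprotein lipase and is also made by cardiomyocytes (-0.85 ± 0.25, adjusted p = 0.0196). Spp1, which encodes osteopontin, ran from 0 to 0.193 CPM over the WT LV libraries and from 3.91 to 397.4 CPM over those of cKO.

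Among 9 tested genes of TREM2 signalling and of the uptake of dying cells, 7 rose in LV and 8 in RV. Lrp1 (1.73 ± 0.11, adjusted p = 2.79e-07), Axl (1.30 ± 0.12, adjusted p = 3.36e-06) and Mertk (1.16 ± 0.18, adjusted p = 0.000226), receptors in that uptake, were among those in LV, as was Inpp5d (2.01 ± 0.29, adjusted p = 0.000118), which encodes a lipid phosphatase of blood cells. Tyrobp, which encodes the adaptor through which TREM2 signals, was listed at 0 in libraries of every LV group, and no difference is drawn from it. Of 7 macrophage growth factor and chemoattractant genes, 4 rose in LV and 5 in RV. In LV these were the chemokine genes Cx3cl1 (0.95 ± 0.18, adjusted p = 0.00104), Ccl8 (2.23 ± 0.51, adjusted p = 0.00336) and Ccl2 (2.44 ± 0.92, adjusted p = 0.0486) and Il34 (0.74 ± 0.24, adjusted p = 0.0261), which shares its receptor with CSF1. Csf1 rose in RV (0.70 ± 0.11, adjusted p = 0.000378) and had a log2 fold change of 0.18 in LV (adjusted p = 0.439).

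Markers of further cell types moved with the same groups, and their part in the macrophage markers was not tested. Of 8 activated fibroblast genes 7 rose in each ventricle in cKO, and their summed level was 355.3 to 433.4 CPM in WT LV against 1826 to 6929 CPM in cKO LV. Resting fibroblast genes rose for 6 of 8 in LV and 8 of 8 in RV. Neutrophil genes rose for 4 of 6 tested in LV and 3 of 7 in RV, at a summed level of 2.411 to 3.745 CPM in WT LV against 8.125 to 116.1 CPM in cKO LV. Of 9 T and B cell genes, 3 rose in LV and 6 in RV, at sums of 2.128 to 5.123 CPM in WT LV and 4.113 to 9.723 CPM in cKO LV. Of 8 endothelial genes, 1 rose and 2 fell in LV and 1 fell in RV, where 19.7% and 19.8% of all genes rose and 16.1% and 17.6% fell. Dendritic cell genes rose for 3 and fell for 1 of 6 tested in LV, and rose for 1 of 7 in RV. Of 4 adipocyte genes, 0 were tested in LV, and in RV 1 was and did not pass.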

How the data were processed

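RNA from 28 libraries (16 LV, 12 RV, of 16 mice) was quantified by the authors with Salmon 1.8.0 on GRCm39; the labels name polyA RNA and also a stranded total-RNA kit. The deposited tables give expected counts and TPM per gene symbol, with effective lengths that the authors took from the same quantification and that served only as offsets in an alternative. Rows with a blank symbol (at most 0.000971% of counts) were left out. Expected counts were rounded, filtered with filterByExpr (16410 genes in LV, 17307 in RV, 17981 together), TMM-normalised and tested with edgeR 4.0.16 (R 4.3.3) in 1 fit of 4 groups per ventricle; p-values were Benjamini-Hochberg adjusted over all genes tested, with calls under 0.05. The spread of 2 to 5 libraries per group limits the precision. Each library of a ventricle is a separate animal. RV and LV were paired by the animal number in the titles (12 animals), as a block. DESeq2 1.42.0 and limma 3.58.1 on log2(TPM + pseudocount) were alternatives, as were other filters and normalisations, sex (from Xist), 2 groups only and leaving out each library. CPM are per TMM-scaled library, with a pseudocount of 0.5 on the log2 scale. The fit was checked on simulated counts. The closest of 38 within-group library pairs differed by a chi-square of 17.87 per degree of freedom, so all were counted as separate libraries. Gene positions are from GENCODE on GRCm39. The members, the 20 gene lists and the tests were chosen with earlier results of these data known. Besides the members, up to 4 genes of a list were named by smallest adjusted p in LV, with defining genes added, and for each member the 3 most correlated genes.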

Additional observations from a re-analysis of the deposited data

Results flagged for a closer look

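In 44 groups of 4 or 5 libraries, 1 for each gene and each summary, the highest or lowest library was set against its nearest neighbour, and in 3 it stood farther away than Dixon's 95% critical value (0.829 for 4 libraries). Chance alone gives about 1 such group in 20. Cd163 was at 25.14 CPM in the LV library of 3E13 animal 182, with the next at 8.794 CPM, a gap of 0.855 of the range. Mrc1 was at 188.4 CPM in the RV library of cKO animal 264, with the next at 122.8 CPM (0.912 of the range). Cd68 was at 83.49 CPM in the LV library of cKO animal 177, with the next at 19.66 CPM (0.835 of the range), and this library also had the highest Trem2, Gpnmb, Lgals3, Mrc1 and Adgre1 of its group.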

How the results depend on the processing

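For cKO against WT the count of members called (8 in LV and 8 in RV) moved by less than 1.5 times under every setting tried, and was 8 to 8 and 8 to 9 with 1 library left out. The treated comparisons moved more. With only the 2 groups compared in the fit, the count was 0 for LV 3E13 against cKO (5 in all), 1 for LV 6E13 against cKO (7), 7 for LV 3E13 against WT (2), 1 for LV 6E13 against WT (0) and 0 for RV 3E13 against cKO (2). DESeq2 gave 5 for LV 3E13 against WT and 3 for RV 6E13 against WT (1), length offsets 1 and sex as a covariate 1 for the former, and sex 1 for RV 3E13 against cKO. Limma on log2(TPM + 0.1) gave 1 and on log2(TPM + 1) 0 for LV 3E13 against WT, 5 and 6 for RV 3E13 against cKO, and with 1 added 3 for RV 3E13 against WT (5) and 0 for RV 6E13 against WT, for which no filter gave 2. Leaving out 1 library gave 2 to 7 for LV 3E13 against cKO, 4 to 8 for LV 6E13 against cKO, 0 to 1 for LV 3E13 against WT, 0 to 2 for RV 3E13 against cKO, 4 to 8 for RV 6E13 against cKO, 2 to 5 for RV 3E13 against WT, 0 to 1 for RV 6E13 against WT, 0 to 1 for RV 6E13 against 3E13 and 0 to 4 for RV against LV in cKO. The animal number pairs RV with LV by design; with no replicate block the last count was 0 (1 with it), and the block changed no other call of a count. No paired analysis was possible between groups because each animal is in 1 group.

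On the relative scale, cKO minus WT, a pseudocount of 0.1 gave 1.798 for Gpnmb, -4.05 for Timd4 and 1.62 for Trem2 in LV and 0.74 for Trem2 in RV; deposited TPM gave 0.049 and -0.35 for Gpnmb in LV and RV. With 1 library left out Cd68 in LV ran from -0.45 to 0.0042 and Lyve1 in RV from -0.058 to 0.48. Without Lyve1, Mrc1 and Lgals3, the resident-recruited balance in RV differed by -3.18. Folr2, never called, changed sign: in LV from -0.33 to 0.20 and in RV from -0.60 to 0.088 with 1 library left out, at 0.62 and 0.51 with limma (0.1 and 1 added) and 0.0195 without the 2 atrial-rich libraries; Adgre1 in RV 3E13 against cKO ran from -0.47 to 0.0296. The causes were not tested. For single genes, 641 values kept direction and side of the threshold under other settings and 34, 29 and 3 became weaker, stronger or reversed; with 1 library left out these were 473, 53, 11 and 7.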
